A study of Mus musculus with 12 samples.

Results

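The secreted antagonists of bone morphogenetic proteins (BMPs) and activins were followed in mouse limb buds at embryonic day 12.5 (E12.5) with a conditional deletion of Mettl14 and in their heterozygous controls. The set was chosen by name, with earlier results of these data known. It holds 8 genes, Nog, Fst, Grem1, Chrd, Chrdl1, Bmper, Fstl1 and Twsg1, out of 31723 in the expression table. All 8 were found, each on 1 row, and all 8 passed the filter on low values. Limb buds with the genotype Mettl14 flox/flox (conditional knockout, cKO) were set against Mettl14 wt/flox heterozygotes (cHet), so that the controls also carry 1 floxed allele. METTL14 is the RNA-binding partner of METTL3, and together they deposit N6-methyladenosine (m6A) on messenger RNA. Each genotype gave 3 biological replicates, each with an input library of total RNA and a library immunoprecipitated with an anti-m6A antibody (IP), 12 libraries in all. Neither the Cre driver nor any pooling of embryos is stated in the sources used here.

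BMPs and activins signal through pairs of serine/threonine kinase receptors that phosphorylate SMAD proteins. Secreted antagonists bind the ligands in the extracellular space and so set where and how far they act. In the limb bud they are known for shaping the digit condensations and joints, for the outgrowth loop between mesenchyme and apical ectoderm, and for muscle formation.

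Levels are FPKM, fragments per kilobase of transcript scaled to library size, and the depth behind them is unknown. The FPKM columns summed to 237288 to 255907 in cKO and 261691 to 275299 in cHet libraries, which do not overlap. Mettl14 itself had 2.67, 3.07 and 2.63 FPKM in cKO libraries, against 5.08, 4.54 and 4.39 FPKM in cHet libraries (59.8% of the cHet mean, limma adjusted p = 0.00289). The tissue label was checked against the limb mesenchyme markers Prrx1, Prrx2 and Twist1, each at 27.5 FPKM or more in every library. Tbx5, the forelimb marker, was at 36.4 to 57.2 FPKM and Pitx1, the hindlimb marker, at 0.416 to 0.614 FPKM over the 6 input libraries. Erythroid genes summed to 5651 to 12681 FPKM in cKO and 7068 to 9893 FPKM in cHet libraries, and none of the 6 was called. The tests compare cKO with cHet input RNA by limma on log2(FPKM + 1) over the 13575 genes whose mean reached 1 FPKM. A gene was called at a Benjamini-Hochberg adjusted p under 0.05, two-sided. All log2 changes given are of FPKM + 1, so those of genes at low levels are understated.

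How transcript levels differ when Mettl14 is deleted was read from the input libraries. Of the 8 antagonist genes, 4 were lower in cKO and none was higher, against 17.5% of all tested genes called lower and 18.7% called higher (36.2% in either direction). On equal FPKM totals the split of all calls moved to 3892 higher and 1397 lower, from 2535 and 2377 as deposited, and 3 antagonists were then called lower and 1 higher. The 4 were Nog, Fst, Fstl1 and Bmper. Nog and Fst were at 48.8% and 52.9% of their cHet mean, and Fstl1 and Bmper at 74.4% and 77%. Grem1 and Chrdl1 lay below every cHet library without passing the test, Twsg1 lay slightly above, and Chrd overlapped. The median log2 change of the 8 genes was -0.33, against -0.0027 for all tested genes. In 6 of the 8 all cKO values lay below all cHet values and in 1 all lay above, against 25.1% and 26% of tested genes (51.2% in either direction). The 8 genes were chosen with earlier results of these data known, so these shares are no test of the set.

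**Figure D1:**
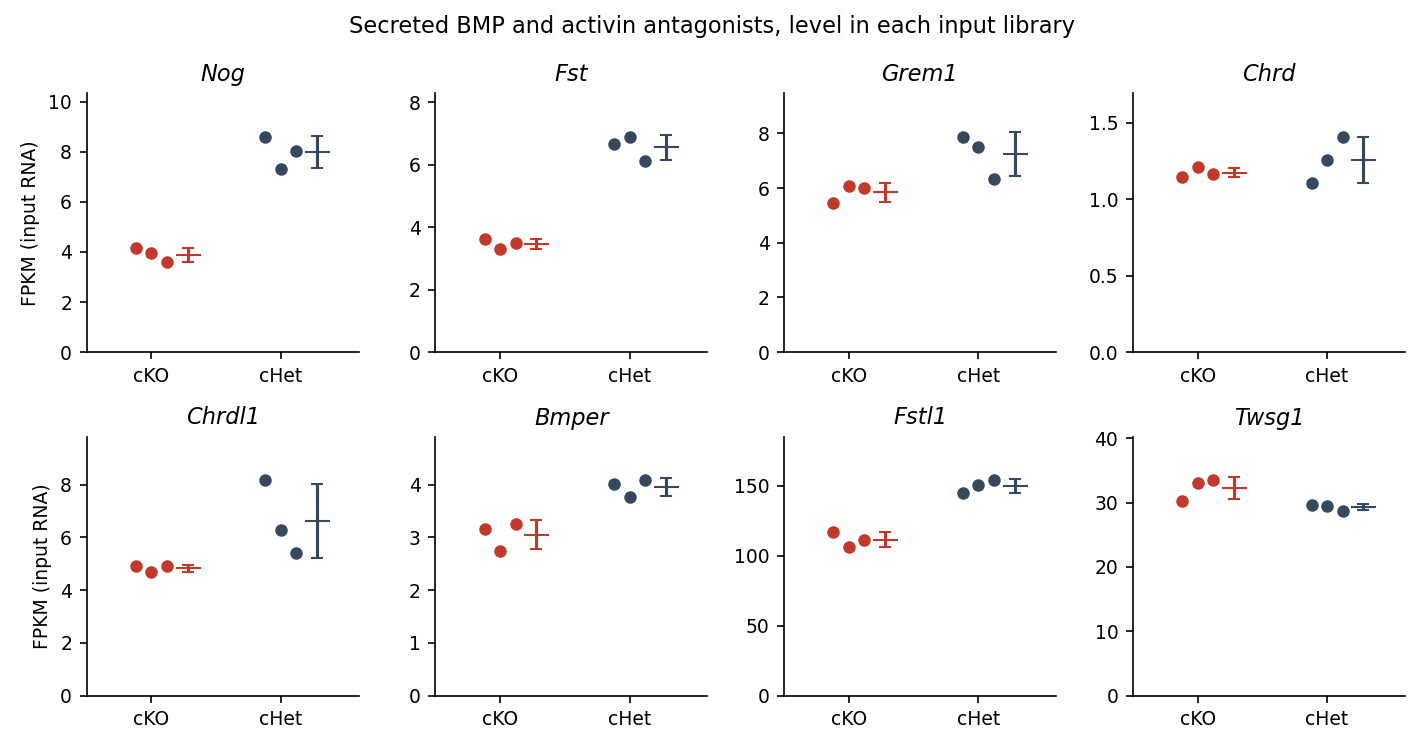
FPKM of each antagonist gene in the input libraries (vertical axes start at 0 and differ between genes). Points are the 3 libraries of a genotype, and the bar beside them is the mean with its SD. Nog and Fst show the widest gap between the genotypes relative to their spread, while the Chrd values overlap.

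Noggin, encoded by Nog (ENSMUSG00000048616, chromosome 11, 89300638 to 89302332, minus strand, mm10), binds BMPs and GDF5 and keeps them from their receptors. In mice it is made by the cartilage condensations and is required for joints to form. Nog stood at 4.15, 3.94 and 3.6 FPKM in cKO libraries, against 8.6, 7.31 and 8.02 FPKM in cHet libraries. Every cKO value was well under the lowest cHet value. Mean Nog was 48.8% of cHet (log2 change -0.87, SE 0.0781, adjusted p = 9.35e-04, n = 3 each, limma). Of all tested genes, 97.2% had a smaller absolute log2 change. In bulk tissue, fewer cells that express a gene and less RNA per cell cannot be told apart.

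Cartilage markers were lower beside Nog, and so were some joint interzone markers. The 8 cartilage markers (Sox9, Col2a1, Acan, Matn1, Col9a1, Col9a2, Col9a3 and Hapln1) summed to 120 to 138 FPKM in cKO and 225 to 243 FPKM in cHet libraries. Of these, 7 fell and Sox9, the transcription factor that starts chondrogenesis, missed the threshold. Their median log2 change was -1.27. The 7 joint interzone markers summed to 83.7 to 91.3 FPKM in cKO and 101 to 133 FPKM in cHet libraries, and 3 fell (Gdf5, Sfrp2 and Barx1). Gdf6, Erg, Wnt4 and Osr2 overlapped between the genotypes and were not called, and Erg was at 109% of cHet. After quantile normalization or without cHet replicate 2, only 1 of the 7 was called lower. None of these markers was listed at 0 in any library. Their part in the difference of Nog was not tested.

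Follistatin, encoded by Fst (ENSMUSG00000021765, chromosome 13, 114452290 to 114458951, minus strand), holds activins, and also myostatin, in complexes that cannot signal. Fst stood at 3.62, 3.29 and 3.48 FPKM in cKO libraries, against 6.66, 6.9 and 6.11 FPKM in cHet libraries. The cKO libraries were again all far below the cHet libraries, and the spread within each genotype was small. Mean Fst was 52.9% of cHet (log2 change -0.76, SE 0.0673, adjusted p = 9.3e-04, n = 3 each, limma). The ligands that follistatin holds differed in direction. Inhba, which encodes the activin A subunit, was lower at 52.4% of cHet (log2 change -0.63, adjusted p = 0.0236). It missed the threshold without cKO replicate 2 (adjusted p = 0.0812), cKO replicate 3 (0.0605) or cHet replicate 2 (0.0612). Mstn, myostatin, was at 70.9% of cHet (log2 change -0.40, adjusted p = 0.0225), a call lost without cKO replicate 2 (0.0731), cKO replicate 3 (0.0603) or cHet replicate 2 (0.0853) and on scaling to equal FPKM totals (0.0641). Gdf11, the close relative of myostatin, rose to 159% of cHet (log2 change 0.64, adjusted p = 0.00102).

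Skeletal muscle markers were lower beside Fst, which is transcribed in and around limb muscle in mouse embryos. The 6 markers (Pax3, Myf5, Myod1, Myog, Actc1 and Mymk) summed to 338, 228 and 209 FPKM in cKO libraries, against 358, 367 and 390 FPKM in cHet libraries. Of the 5 tested, 4 fell, with a median log2 change of -0.64, and none of the 6 was listed at 0 in any library. Actc1, the largest part of these sums, was not called (adjusted p = 0.0651). The calls depended on the setting. With no filter 0 muscle markers were called lower, and without cKO replicate 1 it was 5. Only 1 was called lower without cKO replicate 2, cKO replicate 3 or cHet replicate 2, or with the replicate number as a block. The part of muscle in the difference of Fst was not tested.

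Fstl1 (ENSMUSG00000022816, chromosome 16, 37776873 to 37836514, plus strand) encodes follistatin-like 1, a secreted glycoprotein with a follistatin domain that dampens BMP signalling. It was the most abundant of the 8 genes by far, at a level above that of 98.1% of tested genes. Fstl1 stood at 117, 106 and 111 FPKM in cKO libraries, against 145, 151 and 154 FPKM in cHet libraries. No cKO library came near the cHet range, and mean Fstl1 was 74.4% of cHet (log2 change -0.42, SE 0.0633, adjusted p = 0.0037, n = 3 each, limma). After quantile normalization the Fstl1 change was -0.20 (adjusted p = 0.0437), and on equal FPKM totals it was -0.30 (adjusted p = 0.0136), both still called.

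Bmper (ENSMUSG00000031963, chromosome 9, 23223076 to 23485200, plus strand) encodes the mouse crossveinless 2 protein, which binds BMPs and chordin through cysteine-rich domains and can either block or promote signalling. Bmper stood at 3.16, 2.74 and 3.25 FPKM in cKO libraries, against 4.02, 3.77 and 4.08 FPKM in cHet libraries. The genotypes were separate but close. Mean Bmper was 77% of cHet (log2 change -0.29, SE 0.0738, adjusted p = 0.0219, n = 3 each, limma). This was the weakest of the 4 calls. Without cKO replicate 2, cHet replicate 1 or cHet replicate 2 its adjusted p was 0.0779, 0.0513 and 0.0559, and on equal FPKM totals it was 0.0717.

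Grem1 (ENSMUSG00000074934, chromosome 2, 113746164 to 113758646, minus strand) encodes gremlin 1, which in the limb mesenchyme blocks BMPs and thereby keeps the signals of the apical ectoderm and the posterior margin linked. Grem1 stood at 5.45, 6.07 and 6.02 FPKM in cKO libraries, against 7.88, 7.49 and 6.34 FPKM in cHet libraries. Only cHet replicate 3 lay close to the cKO values. The log2 change was -0.26 (95% confidence interval -0.47 to -0.05, adjusted p = 0.0547, limma), and without cHet replicate 3 it was -0.34 with an adjusted p of 0.0141. That was the only call among the 6 fits that left out 1 library. Leaving out any other library gave an adjusted p of 0.1 to 0.165. On equal FPKM totals the Grem1 change shrank to -0.15 (adjusted p = 0.191). Of the 4 limb mesenchyme markers that could be tested 3 rose, and the list of 5 summed to 246 to 265 FPKM in cKO and 198 to 202 FPKM in cHet libraries. Their part in the Grem1 values was not tested.

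Chordin-like 1, encoded by Chrdl1 (ENSMUSG00000031283, chromosome X, 143285674 to 143394262, minus strand), carries chordin-type cysteine-rich domains that bind BMPs. Chrdl1 stood at 4.92, 4.68 and 4.9 FPKM in cKO libraries, against 8.17, 6.29 and 5.43 FPKM in cHet libraries. The cKO libraries were nearly equal and the cHet libraries were widely spread, with replicate 1 the highest. The log2 change was -0.37 (95% confidence interval -0.67 to -0.07, adjusted p = 0.0587, limma), and without cHet replicate 3 it was -0.49 with an adjusted p of 0.0183. Of the 6 fits that left out 1 library, only that without cHet replicate 3 called Chrdl1. Without cHet replicate 1 the Chrdl1 change shrank to -0.23 (adjusted p = 0.0684), and on equal FPKM totals it was -0.26 (adjusted p = 0.124).

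Chordin itself, encoded by Chrd (ENSMUSG00000006958, chromosome 16, 20733127 to 20742384, plus strand), was the lowest of the 8 genes. Chrd stood at 1.15, 1.21 and 1.17 FPKM in cKO libraries, against 1.1, 1.26 and 1.41 FPKM in cHet libraries. The genotypes overlapped, and no difference was detectable (log2 change -0.05, 95% confidence interval -0.24 to 0.14, adjusted p = 0.642, limma). On equal FPKM totals its change had the opposite sign (0.02, adjusted p = 0.879). Bmp1, a tolloid-type protease that cleaves chordin, was at 127% of cHet (log2 change 0.34, adjusted p = 0.0257). The Bmp1 call was lost when any library other than cHet replicate 3 was left out (adjusted p = 0.0518 to 0.0909).

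Twisted gastrulation, encoded by Twsg1 (ENSMUSG00000024098, chromosome 17, 65921972 to 65951226, minus strand), forms complexes with BMPs and chordin. Twsg1 stood at 30.2, 33 and 33.5 FPKM in cKO libraries, against 29.6, 29.5 and 28.7 FPKM in cHet libraries. Replicate 1 of cKO was only just above the highest cHet library. The log2 change of 0.13 did not pass (95% confidence interval -0.01 to 0.27, adjusted p = 0.116, limma), while on equal FPKM totals it was 0.26 (adjusted p = 0.0164) and after quantile normalization 0.23 (adjusted p = 0.0207).

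**Figure D2:**
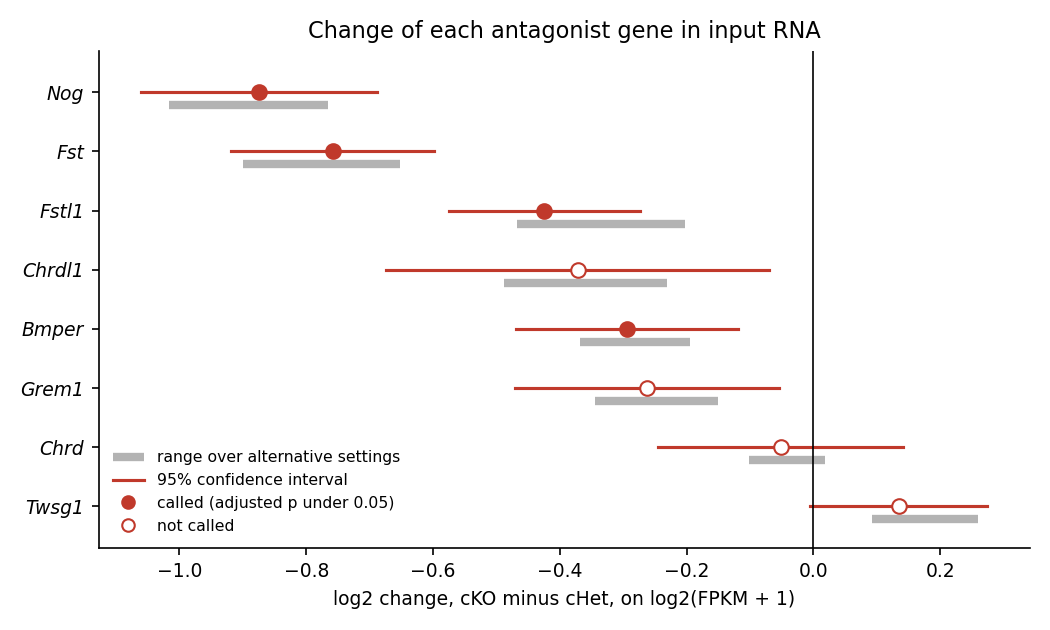
Log2 change of each antagonist gene (cKO minus cHet on log2(FPKM + 1), 3 libraries each) with its 95% confidence interval in red. Grey bars span the 15 or 16 alternative settings that could be run, and filled points are called. Nog and Fst, at -0.87 and -0.76, stay far from 0 throughout, whereas the grey bar of Chrd crosses 0.

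The order of the genes by level differed between the genotypes, on the FPKM scale that is per length. In cKO libraries the mean levels ran Fstl1 (112 FPKM), Twsg1 (32.2), Grem1 (5.85), Chrdl1 (4.83), Nog (3.89), Fst (3.47), Bmper (3.05) and Chrd (1.17). Among these neighbours the replicate values of Nog and Fst overlapped and those of the other pairs did not. In cHet libraries the means ran Fstl1 (150 FPKM), Twsg1 (29.2), Nog (7.98), Grem1 (7.24), Chrdl1 (6.63), Fst (6.56), Bmper (3.96) and Chrd (1.26). There the values of Nog, Grem1, Chrdl1 and Fst overlapped from one neighbour to the next. Nog was the third in cHet and the fifth in cKO, a description with no test of the order.

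Other genes of the pathway were taken from lists by role. Of 8 further tested genes listed as secreted antagonists, 4 fell, 1 rose and 3 missed the threshold (median log2 change -0.23). Nbl1, a cystine-knot protein that binds BMPs, was at 70.6% of cHet (adjusted p = 0.00343). Wfikkn2, a secreted inhibitor of myostatin and GDF11, was at 68.6% of cHet (adjusted p = 0.00391). The 1 that rose was Kcp, at 163% of cHet (log2 change 0.54, adjusted p = 0.0119). It encodes a chordin-related protein that enhances BMP signalling, and so is in the list without being a BMP antagonist.

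The ligand genes divided. Of 12 tested, 5 fell, 1 rose and 6 did not pass (median log2 change -0.17). Bmp5, expressed around skeletal condensations, had 4.04, 3.76 and 4.35 FPKM in cKO libraries, against 7.9, 7.42 and 6.29 FPKM in cHet libraries (log2 change -0.70, adjusted p = 0.00256). Among 10 receptor and co-receptor genes 2 rose, 1 fell and 7 did not pass (median 0.10). Acvr2b, a receptor for activins, myostatin and GDF11, had 5.39, 5.83 and 5.87 FPKM in cKO libraries, against 2.55, 2.3 and 2.19 FPKM in cHet libraries (log2 change 1.00, adjusted p = 5.93e-04). The activin receptor gene Acvr1b rose to 133% of cHet (adjusted p = 0.00729), and Bmpr1b, the BMP receptor of cartilage condensations, was at 73% (adjusted p = 0.00732).

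Among the SMAD genes, the inhibitors listed as intracellular and the response genes, every call was higher in cKO except that of Id4. Of 6 SMAD genes 3 rose (Smad5, Smad1 and Smad2, at 131% to 132% of cHet) and 3 did not pass (median 0.31). The Smad2 call held under 14 of 16 alternatives. It was lost without cHet replicate 2 (adjusted p = 0.0541) and with the replicate number as a block. Of 5 intracellular inhibitors 2 rose and 3 did not pass (median 0.17). Smad7 keeps receptors from activating SMADs, and Bambi is a decoy receptor counted in this list. Smad7 and Bambi rose to 258% and 207% of cHet (adjusted p = 5.93e-04 and 6.91e-04). Of 6 response genes 1 rose, 1 fell and 4 did not pass (median 0.12). Msx2, a BMP target at the limb margin, rose to 257% of cHet (adjusted p = 5.93e-04). Id4 was at 76.9% of cHet (adjusted p = 0.0228), a call lost without cKO replicate 1 or 2 or without cHet replicate 1 or 2 (adjusted p = 0.0567 to 0.0887). The Id4 call was also lost with the replicate number as a block. The signs of these list medians were the same under all 3 other scalings, although on equal FPKM totals 6 SMAD genes, 4 intracellular inhibitors and 4 response genes were called higher.

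**Figure D3:**
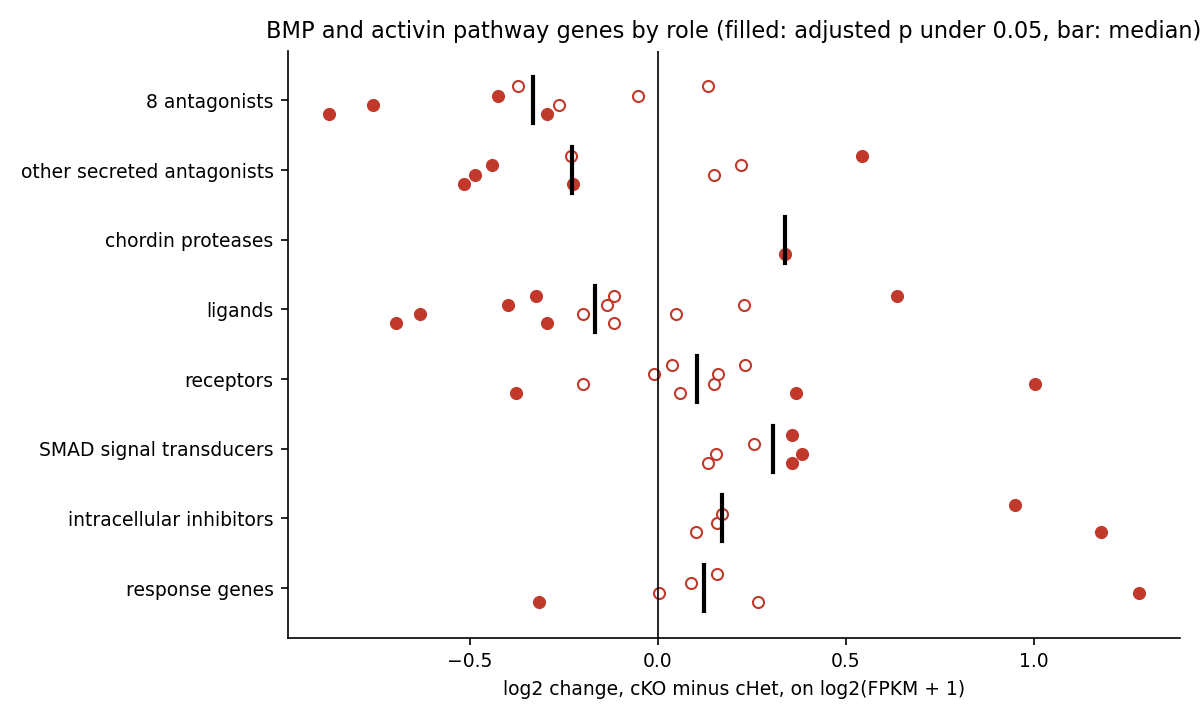
Log2 change (cKO minus cHet on log2(FPKM + 1), 3 libraries each) of every tested pathway gene, 1 point per gene, by role. Filled points are called and black bars are list medians. The 2 groups listed as secreted antagonists and the ligands have medians below 0. The receptors, SMADs, intracellular inhibitors and response genes have medians above 0. The other secreted antagonists include Kcp, which enhances BMP signalling.

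The peak lists ask where the antibody enriched these transcripts over input. There was 1 list per genotype, so a peak has no replicate, and the sources used here do not say how IP was scaled to input. Peaks, positions, enrichments and p-values are the authors' own, and all positions are 1-based on mm10. All 8 antagonist genes had at least 1 peak in each list, as did 90.3% of tested genes in the cKO list and 89.1% in the cHet list. They held 23 of the 46758 cKO peaks and 17 of the 41196 cHet peaks. Of these, 16 cKO and 13 cHet peaks were annotated to a stop codon or 3' UTR, against 52.5% and 55.5% of all peaks. The median log2 enrichment of the antagonist peaks was 1.41 in cKO and 1.56 in cHet, and that of the whole lists was 1.59 in cKO and 1.87 in cHet.

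Nog had the strongest peak of the group in each genotype. A single peak over the stop codon covered the whole annotated gene in cKO and nearly all of it in cHet. It ran over 89300638 to 89302332 in cKO with a log2 enrichment of 2.29, and over 89300638 to 89302237 in cHet with 3.25. In linear terms this is 4.89-fold in cKO and 9.5-fold in cHet, above 80.1% of all cKO peaks and 89% of all cHet peaks. The cKO minus cHet difference was -0.96, and 14.3% of all overlapping pairs had a lower one.

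The Grem1 transcript was enriched along much of its length. In cKO it had 4 peaks, with log2 enrichments of 1.56, 1.44, 2.14 and 1.64 from the 3' end to the 5' end. In cHet 2 longer peaks covered much of the same stretch, a 3' UTR peak at 2.22 and a stop codon peak at 2.78. The stop codon peak of cHet (113747839 to 113758646) overlapped a cKO 3' UTR peak (113747764 to 113748988, 2.14) and a cKO start codon peak (113749739 to 113758646, 1.64). Paired with the start codon peak, it gave a cKO minus cHet difference of -1.14, and 9.59% of all overlapping pairs had a lower one. The cHet 3' UTR peak and its cKO pair differed by -0.79 (19.2% lower). The spans of the cHet stop codon peak (10808 bases) and the cKO start codon peak (8908 bases) run across the intron, so their length is not that of the RNA. The RefSeq model of Grem1 ends at 113748675, and 2 of the cKO peaks lie wholly beyond it in the 3' UTR of the longer model that the authors used.

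In both genotypes the last of these peaks reached to within 2 bases of the RefSeq start of Grem1. In cKO a short 5' UTR peak of Fstl1 (37777023 to 37777122, log2 enrichment 1.33) had no overlapping cHet peak. Fst likewise had a cKO peak at its 5' end (114458688 to 114458951, 1.37) with no overlapping cHet peak. Sequence under these peaks could be read for Grem1 and Fstl1, whose first 50 transcribed bases are in the RefSeq promoter table (GRCm38.p6, the assembly of mm10). They are shown because they are the only peak sequence of the group at hand. The search was for the m6A consensus on the sense strand, the 18 words of 5 bases in which AC is preceded by A or G, that by A, G or T, and C is followed by A, C or T. Capitals mark a match.
Grem1 first transcribed bases, chr2:113758619-113758648, minus strand: actaggtgcgcccttcgcAGACCtggagac
Fstl1 transcribed bases 21 to 50, chr16:37777075-37777104, plus strand: agcgacgctcccaccttcgcctcTAACTcg
The first 50 bases held 2 such words in Grem1 and 1 in Fstl1, and 54.4% of the 32851 windows in that table hold at least 1. A match is a description of the letters and not a methylated site.

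The other Fst peaks lay at the 3' UTR and inside the gene. In cKO the stop codon peak (114453115 to 114454264) was at 1.9 and in cHet the 3' UTR peak over the same stretch (114453115 to 114454164) was at 2.1, a difference of -0.19. The next 2 pairs differed by 0.16 and -0.05. For all 35867 overlapping pairs in the lists the median difference was -0.09, and its quartiles were -0.60 and 0.22, so all 3 Fst pairs lay between these quartiles. Fstl1 had a stop codon peak in each genotype, at 1.41 in cKO and 1.81 in cHet. An intronic Fstl1 peak of cHet (37794210 to 37799320, 1.85) had no overlapping cKO peak.

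The strongest cHet peak of Twsg1, at the stop codon (65926048 to 65929577, 1.96), had no overlapping cKO peak. The 3' UTR peak next to the gene's end was present in both, at 1.73 in cKO and 1.4 in cHet, and a smaller one stood at 0.99 in cKO and 1.12 in cHet. Bmper had 1 short 3' UTR peak close to the end of the gene in each genotype, at 1.55 in cKO and 1.15 in cHet, a difference of 0.40. Of all overlapping pairs, 87.1% had a lower difference than Bmper.

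More peaks were listed in cKO than in cHet for Chrd and Chrdl1, as for Fst, Grem1 and the lists as a whole. Tested genes with a peak had a median of 3 peaks in the cKO list and 2 in the cHet list. Chrd had 3 cKO peaks (1.52, 1.25 and 1.4) and 1 cHet peak (1.56), of which the pair at the 3' end was shared. The other cKO peaks of Chrd (20738106 to 20738600 and 20739893 to 20741676) were annotated to the 3' UTR of other Chrd transcripts. Chrdl1 had 6 cKO peaks and 4 cHet peaks, each below the median of its list. Its stop codon peak of cHet stood at 1.75, against 1.15 for the cKO 3' UTR peak over it, and its other cKO peaks ranged from 0.96 to 1.47.

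Of the 17 cHet peaks of the group, 15 overlapped a cKO peak of the same gene by at least 1 base, against 87.1% of all cHet peaks. Of the 23 cKO peaks, 17 overlapped a cHet peak, against 79.2% of all cKO peaks. The enrichment was lower in cKO in 9 of 15 overlapping pairs, against 57% of all pairs. The share of pairs that were lower was therefore near that of the lists as a whole. By the strongest peak of each gene, 7 of 8 antagonists were lower in cKO and Bmper was higher, against 67.9% of the 11981 tested genes with peaks in both lists. In Chrd, Chrdl1, Fstl1 and Twsg1 the strongest cKO and cHet peaks do not overlap, so different sites are compared there.

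**Figure D4:**
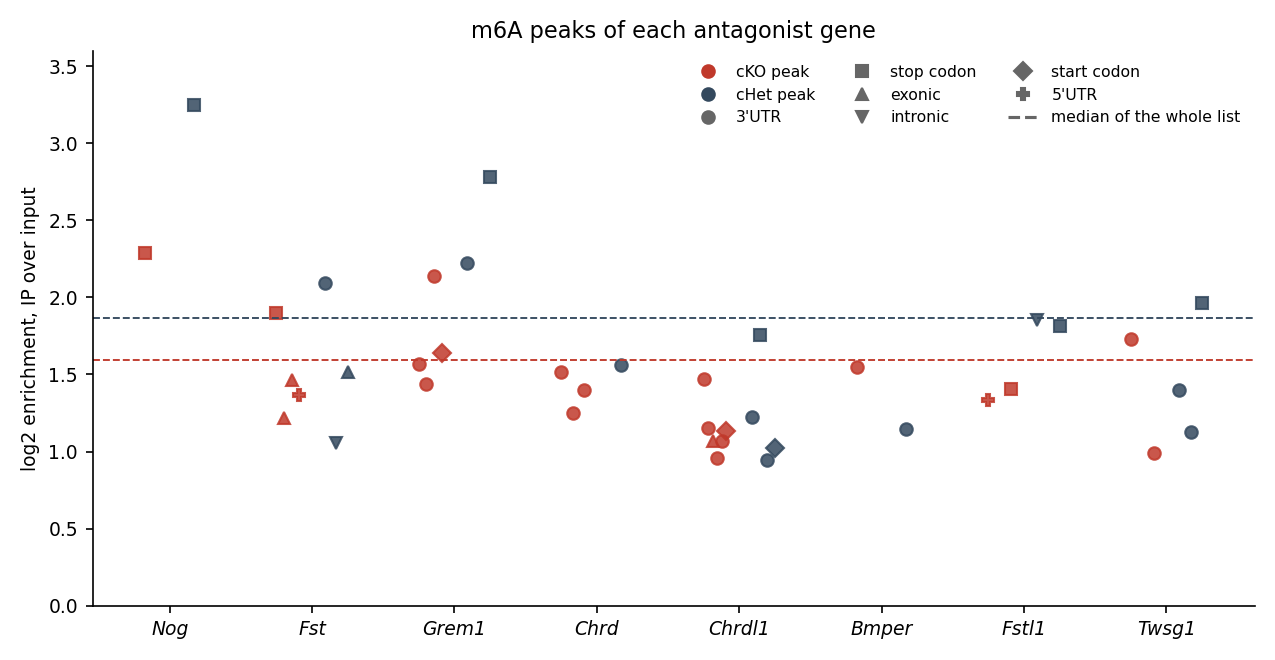
Log2 enrichment of IP over input for every peak of the antagonist genes, with cKO peaks on the left and cHet peaks on the right of each gene. Symbols give the authors' annotation, and dashed lines are the medians of the whole lists (1.59 in cKO and 1.87 in cHet). The strongest peaks belong to Nog and Grem1 in both genotypes.

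Set beside the RNA levels, the peaks of the called genes differed. Nog and Grem1 held the strongest peaks, and Nog was called lower while Grem1 missed the threshold. The peak pair of Nog differed by -0.96, and those of Grem1 by -1.14 and -0.79. Fst, Fstl1 and Bmper were called lower with peak pairs that differed by between -0.41 (Fstl1) and 0.40 (Bmper). Over 8 genes that share the same libraries, this is a description with no test.

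The promoters of 5 of the 8 genes are in the RefSeq table, and those of Bmper and Grem1 are shown as a called gene beside one that missed the threshold. GGCGCC, a word that reads the same on both strands and that SMAD1 and SMAD5 are known to bind, was searched in the 250 bases before the start. Capitals mark it.
Bmper promoter, chr9:23222826-23223075, plus strand: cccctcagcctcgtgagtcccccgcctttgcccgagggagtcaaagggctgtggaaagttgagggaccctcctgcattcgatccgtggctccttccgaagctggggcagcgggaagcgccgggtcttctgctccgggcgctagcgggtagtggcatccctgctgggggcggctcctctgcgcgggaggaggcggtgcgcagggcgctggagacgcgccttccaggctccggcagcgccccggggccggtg
Grem1 promoter, chr2:113758649-113758898, minus strand: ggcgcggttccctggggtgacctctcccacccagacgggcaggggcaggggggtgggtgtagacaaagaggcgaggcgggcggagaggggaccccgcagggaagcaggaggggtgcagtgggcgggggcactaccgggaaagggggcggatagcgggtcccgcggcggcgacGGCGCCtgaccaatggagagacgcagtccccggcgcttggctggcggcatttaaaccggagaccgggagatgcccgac
The word stood once in Grem1, beginning 78 bases before the start, and once in Chrd. It was not found in these 250 bases of Bmper, Fstl1 or Twsg1, and 9.59% of all 32851 windows hold it. The match is a description of the sequence and says nothing of binding in these limb buds.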

How the data were processed

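Limb bud RNA was sequenced as input and as m6A IP from 3 cKO and 3 cHet replicates. The members and gene lists were chosen with earlier results of these data known. FPKM per gene for 6 inputs were made by the authors, per the file headers. For every peak, the deposited lists hold a log2 enrichment, a p-value and an adjusted p-value, per the file headers, and a length. fastp, HISAT2 and mm10 are named in the submitters' processing notes. The sources used here do not state the expression program, annotation, use of strand or peak caller. Values of the IP libraries were not used here. All FPKM columns were matched to samples (0 left out).

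From these values, limma 3.58.1 in R 4.3.3 (lmFit, eBayes with trend, no covariates) was fitted on log2(FPKM + 1) over the 13575 genes whose mean reached 1 FPKM, 3 against 3 libraries, with Benjamini-Hochberg adjustment over all of them. No count test was run. Where a test is named without a tool, it is this limma fit. With 3 against 3 libraries an exact permutation test cannot give a p under 0.1. The step was tested on simulated data of 13575 genes for this comparison. In it 42% of changes of 0.5 and 84% of changes of 1 on the log2 scale were recovered. The simulation changed far fewer genes than the 4912 called in the data, so these rates need not hold for the data. Peak starts in the lists count from 0 (12655 starts lie 1 base before a gene's start and 0 at it), so 1 was added. Peaks were paired by gene, strand and an overlap of at least 1 base, taking the cKO peak with the largest overlap. Promoter sequences are from RefSeq (GRCm38.p6), which held 5 of the 8 genes. The alternatives were pseudocounts of 0.1 and 0.5, no filter and a filter of 5 FPKM, 3 scalings, 2 forms of eBayes, a replicate block, leaving out each library, stricter peak thresholds and a larger overlap. Named genes outside the group are the called genes of each pathway list with the largest change, at most 4 a list, and 1 of them is not reported here.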

Additional observations from a re-analysis of the deposited data

How the results depend on the processing

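The calls of Nog, Fst and Fstl1 held under all 16 alternatives, with log2 changes of -1.02 to -0.77, -0.90 to -0.65 and -0.47 to -0.20. Of 126 values of the 8 genes over the alternatives, 111 kept their direction and their side of the threshold. The cause of the others was not tested. Scaling to equal FPKM totals moved the median of all tested genes to 0.10 (log2) and gave 73.6% of calls as higher, against 51.6% as deposited, so changes there are to be read relative to that shift. Under it Bmper was -0.19 (adjusted p = 0.0717), Twsg1 was called at 0.26, Chrd turned to 0.0187, 1 antagonist was called higher, and 3892 genes were called higher and 1397 lower, against 2535 and 2377. With equal medians Grem1 (-0.30) and Chrdl1 (-0.41) were called. After quantile normalization Grem1 (-0.30), Chrdl1 (-0.42) and Twsg1 (0.23) were called, the last being 1 antagonist higher. With no filter, 31723 genes were tested, and Bmper stayed at -0.29 but missed the threshold (adjusted p = 0.0503). Leaving out 1 library gave 3 to 6 antagonists called lower and log2 changes of -0.33 to -0.24 for Bmper, -0.34 to -0.21 for Grem1 and -0.49 to -0.23 for Chrdl1. Without cHet replicate 2, 1265 genes were called lower and 1504 higher, and without cKO replicate 2, 1407 and 1613. Without cKO replicate 3, 1669 were higher, and with the filter of 5 FPKM, 1619. Inhba, Mstn, Bmp1 and Id4 also missed the threshold with no filter (adjusted p = 0.054 to 0.0746). The filter of 5 FPKM left Chrd and Bmper untested.

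With the replicate number as a block, Bmper (-0.29) missed the threshold (adjusted p = 0.0554), 3 antagonists were called lower, and 1325 genes were called lower and 1564 higher. Deviations of same-numbered samples from their genotype mean correlated at r = -0.08, 0.04 and -0.20 for replicates 1, 2 and 3. Those of differently numbered samples correlated at -0.25 to 0.29. With 3 samples per genotype this cannot tell whether same-numbered samples share more than a number. In the exact permutation test over 6 libraries the smallest possible p is 0.1, which 7 of the 8 genes reached and Chrd (0.5) did not, so it gives no calls.

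An adjusted p under 0.001 left every peak count as it was. A log2 enrichment of at least 2 left 2 genes with a cKO peak and 3 with a cHet peak, 2 cKO and 4 cHet peaks, 2 cHet peaks with an overlapping cKO peak and 2 cKO peaks with an overlapping cHet peak. With an overlap of at least 0.5 of each peak, 11 cKO and 11 cHet peaks were shared. The shares of all peaks under these stricter settings were not computed, so these counts cannot be set against the whole lists.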
